A study of Oryctolagus cuniculus with 9 samples.

Results

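Satellite cells are the resident stem cells of skeletal muscle, and 7 transcription factors that mark them or drive the muscle programme were followed here in rabbit diaphragm, the main muscle of inspiration. The genes were PAX7, MYF5, MYF6, MYOD1, MYOG, MEF2A and MEF2C. They were taken by gene name, with no threshold on a measured value, and made up 7 of the 29076 genes in the expression table. All 7 passed the minimum mean level of 0.5 FPKM (fragments mapped to a gene, a level scaled by gene length and sequencing depth) and were tested together with 12981 genes in all.

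RNA from whole diaphragm of New Zealand white rabbits was sequenced in 9 libraries. The CON group held 3 libraries of rabbits that were anaesthetized and breathed spontaneously. In the MV group, 3 libraries came from anaesthetized rabbits ventilated for 48 h in an assist-control mode, in which the animal's own breathing effort can trigger the ventilator, with no PEEP (PEEP, positive end-expiratory pressure, keeps the airway above ambient pressure between breaths). The MV_PEEP group, 3 libraries of rabbits ventilated with PEEP, carries a PEEP label of 8 with no unit, and neither its ventilation time nor its mode is given in the sources used here. The labels number the libraries within a group but do not say that each is a separate rabbit. The p-values therefore reflect library-to-library spread, which may be technical.

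PAX7 is the defining factor of quiescent and activated satellite cells. MYF5 and MYOD1 commit these cells to the muscle lineage, MYOG (myogenin) drives their terminal differentiation and also acts in innervation-dependent gene control in fibres, and MYF6 (MRF4) is the member of this bHLH family that prevails in mature fibres. MEF2A and MEF2C are MADS-box factors that act with the bHLH factors on the promoters of contractile, metabolic and synaptic genes.

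Library totals ran from 21646702 to 31791693 counts in CON, from 24670232 to 43697018 in MV and from 33024311 to 41077310 in MV_PEEP. The muscle identity of the tissue was plain from ACTA1, the skeletal muscle actin, at 10741 to 36770 FPKM. MV_PEEP replicate 3 stood apart, with summed FPKM of 3798 over the 8 fibroblast markers against at most 1561 in any other library, 405 over 3 adipocyte markers against at most 27.7, and the lowest sum of the 9 fibre markers matched, 20838. Neutrophil markers were highest in MV replicate 1, at a summed 1027 FPKM against 2.96 to 19.1 in CON. MV_PEEP replicate 1 had an aberrant MEF2A value.

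The 7 factors covered a wide range of levels in the diaphragm. By mean FPKM over the 9 libraries the order was MYF6 (194), MEF2C (32.4), MYOG (17.2), MEF2A (11.6), MYOD1 (3.12), MYF5 (1.55) and PAX7 (0.578). MYF6 exceeded MEF2C, MEF2C exceeded MYOG and MYF5 exceeded PAX7 in all 9 libraries. MYOG exceeded MEF2A in 6 of 9, so this neighbouring pair was not separated by the spread between libraries, while MEF2A exceeded MYOD1 and MYOD1 exceeded MYF5 in 8 of 9 each. Of the summed FPKM of the 4 bHLH factors MYF5, MYF6, MYOD1 and MYOG, MYF6 accounted for 83.9% to 93.4% in every library. MYF6 and MYF5 are neighbours on chromosome 4 of the OryCun 2.0 build, on the same strand at 59978618 to 59980524 and 59987595 to 59990296, with 7070 bases between them.

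**Figure D1:**
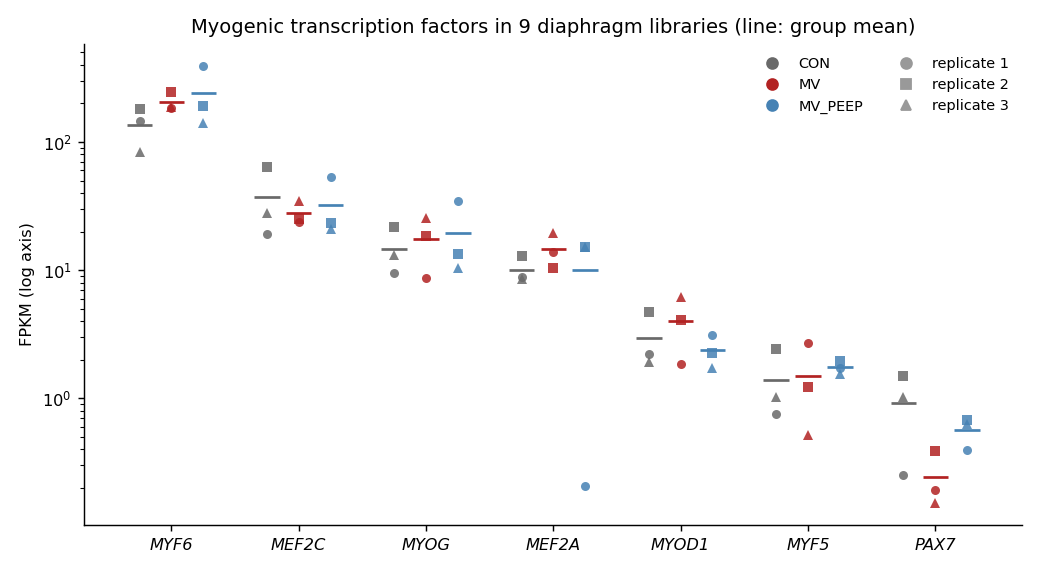
FPKM of the 7 factors on a log axis, 1 point per library, coloured by group and shaped by replicate, with a line at each group mean (n = 3). MYF6 lies above all the others in every library, the 3 MV points of PAX7 lie below all 3 MV_PEEP points, and 1 MEF2A point of the MV_PEEP group lies far below the rest at 0.206.

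PAX7 (chromosome 13, 134114313 to 134207678, minus strand) had the largest fold change of the 7 between ventilated and spontaneously breathing rabbits. Its FPKM was 0.255, 1.49 and 1.02 in CON, 0.193, 0.386 and 0.153 in MV, and 0.394, 0.678 and 0.629 in MV_PEEP. CON replicates 2 and 3 were the highest of the 9 libraries, but CON replicate 1 lay among the MV libraries, so the groups overlapped. The values rest on few reads, 25 to 194 counts a library. PAX7 passed the minimum mean of 0.5 FPKM through CON, where its mean was 0.922. The mean was 0.244 in MV and 0.567 in MV_PEEP, and 0.405 over the 6 ventilated libraries. The tests of PAX7 against CON are thus of a gene admitted by the group in which it is highest.

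In the fit over all libraries (edgeR's quasi-likelihood test with TMM scaling), PAX7 was lower in MV than in CON by a log2 fold change of -1.95 ± 0.65 (SE, n = 3 against 3), that is 3.86-fold, with a 95% interval of -3.40 to -0.50. The unadjusted p was 0.0135 and the Benjamini-Hochberg adjusted p over all tested genes was 0.567, so the difference did not pass the threshold of 0.05. An exact two-sided permutation test of mean FPKM gave p = 0.2, where 3 against 3 libraries allow no less than 0.1. With the 6 ventilated libraries set against CON, as the mean of the MV and MV_PEEP groups, the log2 fold change was -1.46 ± 0.53 (edgeR unadjusted p = 0.0195, adjusted p = 0.549, exact permutation p = 0.143). The call at an unadjusted p rested on single control libraries: without CON replicate 2, edgeR gave -1.60 (unadjusted p = 0.059) for MV and -1.10 (unadjusted p = 0.118) for all ventilated libraries. Without CON replicate 3 the latter was -1.29 (edgeR unadjusted p = 0.0727), and without CON replicate 1 the differences grew to -2.38 and -1.87.

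With PEEP, PAX7 lay between the other groups, at a log2 fold change of -0.97 ± 0.63 against CON (edgeR unadjusted p = 0.157) and 0.98 ± 0.64 against MV (unadjusted p = 0.154). The 3 MV_PEEP libraries were all above the 3 MV libraries, which gives an exact permutation p of 0.1, the smallest that 3 against 3 allows. This contrast is also the test of the difference between the MV and the MV_PEEP effects, since both share the CON libraries, and it did not pass (edgeR adjusted p = 0.985). Without MV_PEEP replicate 3 the difference from MV was 1.09 and from CON -0.86. The difference from CON depended on the controls, at -0.59 without CON replicate 2 and -1.37 (edgeR unadjusted p = 0.0426) without CON replicate 1.

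In whole tissue, fewer satellite cells and less PAX7 RNA per cell cannot be told apart. Markers of some other cell types lay on the same side of 0 as PAX7 in MV minus CON and those of others did not. Of 9 skeletal muscle fibre markers, 8 were below 0 in MV minus CON (median -0.67), 1 of them at an edgeR unadjusted p under 0.05. In MV_PEEP minus CON, 8 were below 0 as well (median -0.79), 2 of them at an edgeR unadjusted p under 0.05 (3.02% of all tested genes were lower). Their summed FPKM was 54452.3 to 65482.2 in CON, 28089.5 to 40757.2 in MV and 20837.8 to 40116.5 in MV_PEEP. Every ventilated library thus lay below CON in this sum, which is weighted to the most abundant markers. Of all tested genes, 7.23% did not overlap between the ventilated and CON libraries. Of 8 smooth muscle and pericyte markers all were below 0 in MV minus CON, 5 of them at an edgeR unadjusted p under 0.05 (3.19% of all tested genes were lower at this level), and their summed FPKM was 122 to 351 in CON, 53.2 to 177 in MV and 81.7 to 351 in MV_PEEP. The count of 5 dropped to 2 without CON replicate 2 and to 3 without CON replicate 3, MV replicate 2 or MV replicate 3. All 8 fibroblast markers were below 0 in that contrast, 1 at an unadjusted p under 0.05 (PDGFRL), with sums of 408 to 1561 in CON, 221 to 435 in MV and 137 to 3798 in MV_PEEP. Without MV_PEEP replicate 3, 5 fibroblast markers were lower in MV and all 8 in MV_PEEP than in CON at an edgeR unadjusted p under 0.05. Of all 12981 tested genes, 567 and 485 were lower at this level in these 2 contrasts. This alternative was chosen, like all those on lists, after the data were seen. With all libraries, 5 of the 8 fibroblast markers were above 0 in MV_PEEP minus CON, whereas all 8 smooth muscle and pericyte markers were below 0. In MV minus CON, 5 of 7 endothelial markers were below 0 (median -0.45), 2 of 4 macrophage markers were above 0 (median 0.76) and 4 of 4 neutrophil markers were above 0 (median 4.66). None of the smooth muscle, pericyte and fibroblast markers was at 0 in every library, and the part of all these markers in the PAX7 values was not tested.

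MYF5 had no fold change of such size. It was measured at 0.752, 2.42 and 1.02 FPKM in CON, 2.70, 1.23 and 0.522 in MV, and 1.74, 1.97 and 1.56 in MV_PEEP. The highest and the lowest of the 9 libraries both belonged to the MV group. The log2 fold changes were -0.04 ± 0.65 for MV minus CON and 0.09 ± 0.65 for MV_PEEP minus CON, with 95% intervals of -1.49 to 1.41 and -1.35 to 1.54.

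The ratio of PAX7 to MYF5 FPKM, chosen after the values were seen, was 0.339, 0.619 and 0.994 in CON, 0.0715, 0.313 and 0.293 in MV, and 0.227, 0.344 and 0.404 in MV_PEEP. Every MV library lay below every CON library, whereas MV_PEEP overlapped CON. No test is given for this ratio, since it was picked on these values.

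**Figure D2:**
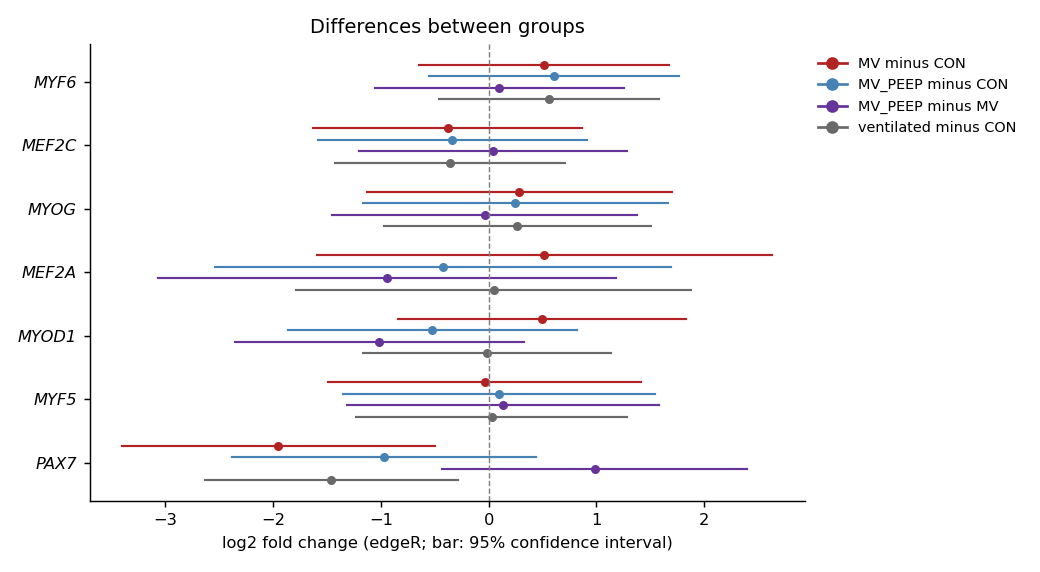
Log2 fold changes of the 7 factors in 4 contrasts (edgeR), each point with its 95% confidence interval. The intervals of PAX7 in MV minus CON (-3.40 to -0.50) and in ventilated minus CON (-2.63 to -0.29) lie below 0, and those of the other 6 factors include 0 in every contrast.

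MYOD1, on a scaffold not placed on a chromosome, was low but detected throughout. It stood at 2.23, 4.72 and 1.94 FPKM in CON, 1.84, 4.08 and 6.17 in MV, and 3.14, 2.26 and 1.73 in MV_PEEP. MV replicate 3 was the highest of the 9 and MV_PEEP replicate 3 the lowest, and all groups overlapped. Its largest contrast was MV_PEEP minus MV, at a log2 fold change of -1.01 ± 0.60 (edgeR unadjusted p = 0.123, adjusted p = 0.985), which shrank to -0.35 without MV replicate 3 and -0.68 without MV_PEEP replicate 3. It grew to -1.40 without MV replicate 1 (edgeR unadjusted p = 0.0338) and -1.43 without MV_PEEP replicate 1 (unadjusted p = 0.0648). Against CON the values were 0.49 ± 0.60 in MV and -0.52 ± 0.60 in MV_PEEP.

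MYOG (chromosome 16, 68679775 to 68681730, plus strand) varied more within groups than between them. FPKM was 9.43, 21.6 and 13.1 in CON, 8.64, 18.6 and 25.4 in MV, and 34.6, 13.4 and 10.5 in MV_PEEP. Each group thus held a library near 10 and another near or above 20, and every pair of groups overlapped. The log2 fold change was 0.29 ± 0.64 in MV and 0.25 ± 0.64 in MV_PEEP, both against CON, and -0.04 ± 0.63 between the ventilated groups (edgeR unadjusted p = 0.663, 0.705 and 0.954). Without MV_PEEP replicate 1, the highest library, MV_PEEP minus CON became -0.68.

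MYF6 was the only factor whose FPKM did not overlap between CON and MV. It was 147, 179 and 84.1 in CON and 185, 245 and 187 in MV (exact permutation p = 0.1, the smallest possible), and 392, 189 and 140 in MV_PEEP. The separation was narrow, 179 against 185, and was lost on TMM-scaled CPM (counts scaled to a common library size; exact permutation p = 0.2). edgeR gave 0.51 ± 0.52 for MV minus CON (unadjusted p = 0.349, adjusted p = 0.900) and 0.61 ± 0.52 for MV_PEEP minus CON (unadjusted p = 0.270). The latter rested on MV_PEEP replicate 1, without which it was -0.14.

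MEF2C (chromosome 11, 8629218 to 8805101, minus strand) was the second most abundant factor. It was at 19.2, 63.6 and 28.1 FPKM in CON, 23.8, 24.99 and 34.6 in MV, and 52.8, 23.3 and 20.98 in MV_PEEP. CON replicate 2 and MV_PEEP replicate 1 stood above the other 7 libraries, which lay between 19.2 and 34.6. The log2 fold change was -0.38 ± 0.56 in MV and -0.34 ± 0.56 in MV_PEEP against CON (edgeR unadjusted p = 0.516 and 0.559). Leaving out CON replicate 2 brought these to 0.05 and 0.12, and leaving out MV_PEEP replicate 1 brought the second to -1.10 (unadjusted p = 0.0633).

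MEF2A, also on an unplaced scaffold, was at 8.51 to 19.5 FPKM in 8 of the libraries and nearly missing from MV_PEEP replicate 1. Its FPKM was 8.77, 12.8 and 8.51 in CON, 13.7, 10.3 and 19.5 in MV, and 0.206, 15.0 and 15.0 in MV_PEEP. MV_PEEP replicate 1 held 44 counts, and the lowest of the other libraries was 41.3-fold above it in FPKM. Such drops were rare but not confined to this gene or library: among genes with at least 1 FPKM in all other libraries, 4 of 8646 lay over 10-fold below the lowest other library in MV_PEEP replicate 1 (MEF2A, FLRT2, GPRASP2 and LOC103347268), and 2 to 33 did so in the other 8 libraries.

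With all libraries the fit gave MEF2A log2 fold changes of 0.52 ± 0.95 in MV and -0.42 ± 0.95 in MV_PEEP against CON. Without MV_PEEP replicate 1 the second became 0.15 ± 0.43 (edgeR unadjusted p = 0.738) and the first stayed at 0.52 with a smaller error of 0.39 (unadjusted p = 0.213). The MV value rested on MV replicate 3, without which it was 0.049. With or without MV_PEEP replicate 1, neither difference from CON reached an edgeR unadjusted p of 0.05.

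**Figure D3:**
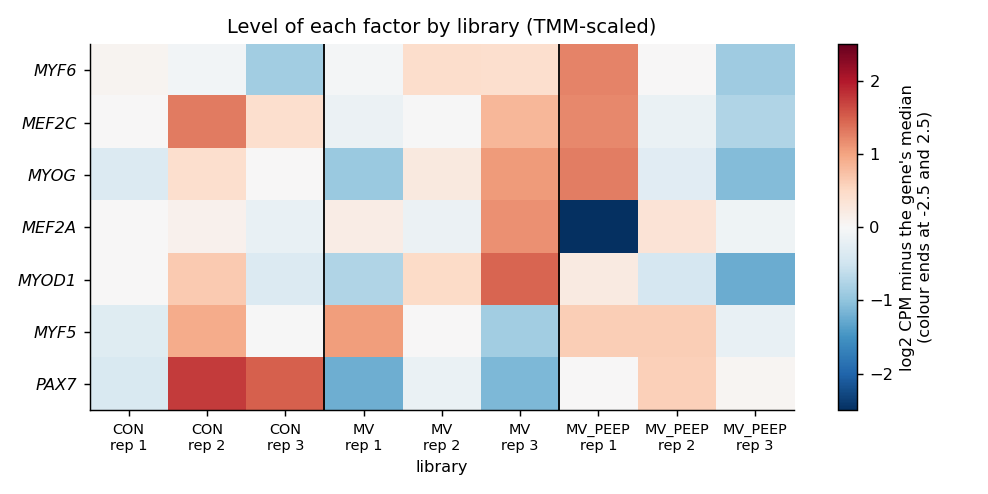
TMM-scaled log2 CPM of each factor by library, as the difference from that gene's median over the 9 libraries, with the 3 libraries of each group side by side (vertical lines part the groups). MYOD1, MYOG and MEF2C are high together in CON replicate 2 and MV replicate 3 and low together in MV_PEEP replicate 3, PAX7 is high in CON replicates 2 and 3, and the single dark blue cell is MEF2A in MV_PEEP replicate 1.

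Counted over the family, no factor passed an adjusted p of 0.05 in any of the 4 contrasts (0 of 7 in each). The same held for all tested genes, of which edgeR called 0.0% in MV minus CON, 0.0% in MV_PEEP minus CON, 0.0% in MV_PEEP minus MV and 0.0% in ventilated minus CON, and none of the 7 was called by DESeq2, which called 154, 98, 15 and 203 genes in these contrasts. At an unadjusted p under 0.05, 1 of 7 (PAX7) was past the level in MV minus CON against 6.96% of all tested genes, 0 of 7 in MV_PEEP minus CON against 6.25%, 0 of 7 in MV_PEEP minus MV against 3.52%, and 1 of 7 (PAX7) in ventilated minus CON against 7.43%.

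Group FPKM did not overlap for 1 of 7 factors in MV minus CON (MYF6), where 15.3% of all tested genes did not overlap, and for 1 of 7 in MV_PEEP minus MV (PAX7), against 6.39%. In MV_PEEP minus CON and in ventilated minus CON it was 0 of 7, against 16.8% and 7.23%. With 7 genes these counts are no result about the family. Against CON, the median log2 fold change of the 7 was 0.29 in MV, -0.34 in MV_PEEP and 0.03 in ventilated libraries. In MV_PEEP minus MV it was 0.04. Over all tested genes these medians were, in the same order, 0.018, 0.058, 0.037 and -0.00014.

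Some of the factors varied together from library to library. On log2 CPM (counts scaled to a common library size with TMM), MYOG and MEF2C had a Pearson r of 0.86 over the 9 libraries (exact permutation p = 0.00327, adjusted over the 21 pairs of members 0.0493) and a Spearman rho of 0.83 (exact permutation p = 0.00827, adjusted 0.0868). For MYOD1 and MYOG, r was 0.84 (exact permutation p = 0.00469, adjusted 0.0493) and rho was 0.85 (exact permutation p = 0.00607, adjusted 0.0868). Leaving out the 2 libraries farthest from the median of the first gene named left r at 0.73 and 0.71, and deviations from the group means gave 0.91 and 0.92. The relation was therefore present within groups, and these pairs passed the adjusted level by r but not by rho. Both genes of a pair come from the same library and share its scaling. The permutations shuffled all 9 libraries without regard to group. How often other pairs of tested genes reach such r was not counted.

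The 2 next pairs, MYOD1 with MEF2C (r = 0.74) and MYF6 with MYOG (r = 0.72), had an adjusted exact permutation p of 0.137 each, and the latter fell to 0.33 without the 2 farthest libraries. PAX7 and MYF5 did not move with the differentiation factors: r of either with any other member lay between -0.37 and 0.30. MYF6 and MEF2A changed from r = -0.60 to 0.52 when MV_PEEP replicate 1 was left out.

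**Figure D4:**
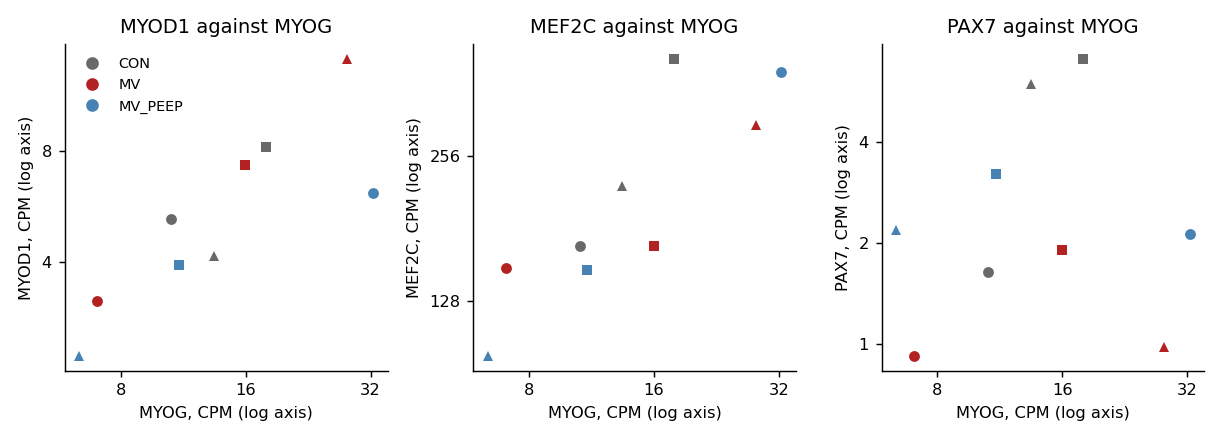
TMM-scaled CPM of MYOD1, MEF2C and PAX7 against MYOG, 1 point per library on log axes, coloured by group (circle, square and triangle are replicates 1, 2 and 3). MYOD1 and MEF2C rise along with MYOG across the 9 libraries (r = 0.84 and 0.86), and PAX7 does not (r = 0.07).

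Among 11522 tested genes whose mean FPKM was 1 or more, the genes most like each factor were listed by Pearson r over the 9 libraries, as a description. They were picked as the highest of so many r over few libraries. High values were thus built into the choice and say nothing of shared control. For PAX7 they were TAF5L (r = 0.94), TTLL4 (0.93) and ARMCX4 (0.93). MYOG was most like LOC108175795 (0.94), RXRG, a retinoid X receptor (0.94), and ARHGEF37 (0.93). MYF6 was most like AARSD1 (0.97), NADK2, the mitochondrial NAD kinase (0.94), and GATB (0.94), and MYOD1 like YWHAG (0.91), KPNA1 (0.91) and C18H19orf47 (0.91). For MYF5 the closest named gene was CPOX, an enzyme of haem synthesis (0.94). The genes closest to MEF2A, which were DENND4C (0.99), GPRASP2 (0.98) and FLRT2 (0.97), shared its low value in MV_PEEP replicate 1, and by rank FLRT2 reached only 0.48.

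Genes listed as targets of MEF2 factors or myogenin in adult muscle included several with large fold changes. Any part of these factors in the changes was not tested. Of the 16 genes listed, all tested, 8 were higher and 1 lower in MV than in CON at an edgeR unadjusted p under 0.05. In MV_PEEP, 5 were higher and 1 lower than in CON. Of all tested genes, 3.77% were higher and 3.19% lower at this level in MV minus CON, and 3.23% and 3.02% in MV_PEEP minus CON. Their median log2 fold change was 1.13 and 0.58 in these contrasts, beside 0.018 and 0.058 over all tested genes. None passed an adjusted p of 0.05. These lists were drawn up with earlier results of the same libraries known, so the counts are a description. Leaving out single libraries gave 5 to 9 higher and 0 to 2 lower for MV (5 higher without CON replicate 3, MV replicate 1 or MV replicate 3), and 3 to 7 higher and 1 to 2 lower for MV_PEEP (3 without CON replicate 2).

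MUSK, the kinase that organizes the neuromuscular synapse, was at 0.405, 0.715 and 1.23 FPKM in CON, 9.0, 5.33 and 16.5 in MV, and 5.14, 6.07 and 3.87 in MV_PEEP. All 6 ventilated libraries lay above all 3 controls (log2 fold change of ventilated minus CON 3.05 ± 0.58, edgeR adjusted p = 0.145). CHRNA1, the alpha subunit of the muscle acetylcholine receptor, was at 2.54 to 4.93 in CON and 9.998 to 20.98 in the ventilated libraries, again without overlap (1.54 ± 0.43, adjusted p = 0.376). Of all tested genes, 7.23% did not overlap between the ventilated and CON libraries. TRIM63 (MuRF1), a ubiquitin ligase of muscle atrophy, was at 25.3, 37.3 and 54.9 in CON and 52.8 to 296 in the ventilated libraries, with MV replicate 3 just below the highest control (1.77 ± 0.49, adjusted p = 0.376). In the other direction, SLC2A4 (GLUT4), the insulin-responsive glucose transporter and a MEF2 target, was at 56.7 to 83.3 in CON and 22.8 to 46.3 in the ventilated libraries (-1.30 ± 0.33, adjusted p = 0.312).

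The 5 genes higher with PEEP were MUSK, CHRNA1, TRIM63 and, named after their values were seen, CHRND and FBXO32. Between the ventilated groups, MUSK was lower in MV_PEEP than in MV by a log2 fold change of -1.31 ± 0.58 (edgeR unadjusted p = 0.0465, adjusted p = 0.985).

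**Figure D5:**
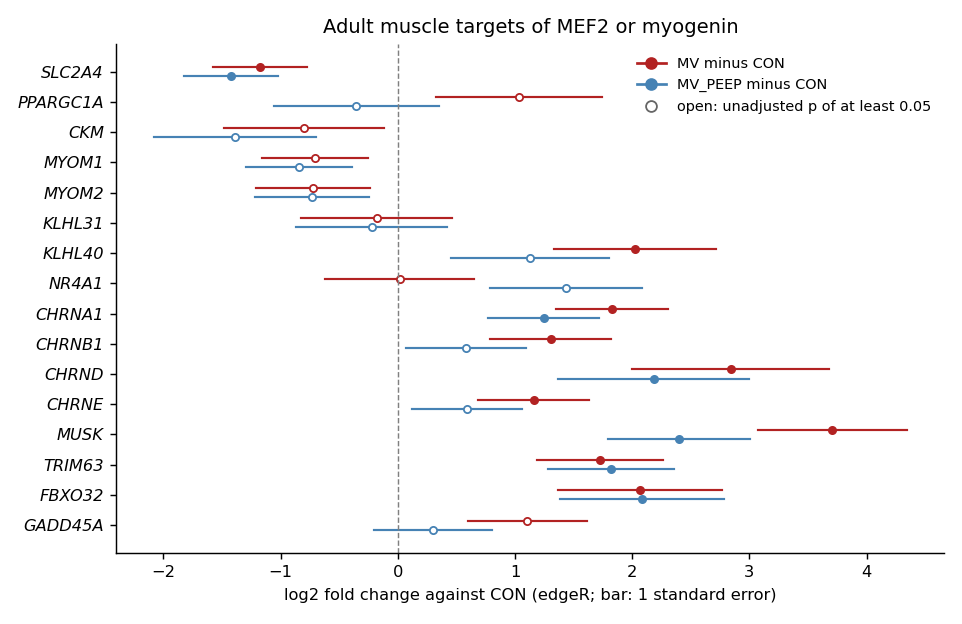
Log2 fold changes against CON (edgeR) of all 16 tested genes listed as targets of MEF2 factors or myogenin, with bars of 1 standard error. Filled points have an unadjusted p under 0.05, which 8 genes have above 0 and 1 below 0 in MV minus CON. MUSK lies farthest to the right in both contrasts (3.71 and 2.40), and SLC2A4 is to the left of 0 in both (-1.18 and -1.42).

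Surface and niche genes of satellite cells showed no common direction. Of 12 tested, 2 were higher and 1 lower in MV than in CON at an unadjusted p under 0.05, 1 was higher in MV_PEEP, and the median was -0.13 and -0.03. Beside this list and those below, 3.77% of all tested genes were higher and 3.19% lower in MV minus CON at this level. In MV_PEEP minus CON it was 3.23% and 3.02%. Group FPKM did not overlap for 15.3%, 16.8% and 7.23% in MV minus CON, MV_PEEP minus CON and ventilated minus CON. Counts of 1 or 2 genes in lists this short are not taken as a result. NCAM1, a cell adhesion molecule of satellite cells and of denervated fibres, was at 0.517, 1.57 and 1.79 FPKM in CON and 2.16 to 3.50 in all 6 ventilated libraries (ventilated minus CON 1.02 ± 0.41, edgeR adjusted p = 0.604). SDC4, a syndecan of the satellite cell surface, was at 10.8 to 17.0 in CON and 19.4 to 110.0 in the ventilated libraries, and CD82, a tetraspanin, was lower in MV (-0.80 ± 0.35, unadjusted p = 0.0465). The 1 gene higher in MV_PEEP was VCAM1, which stood at 49.3 FPKM in MV_PEEP replicate 3 and at 0.436 to 1.53 in the other 8 libraries. The 2 genes higher in MV fell to 0 without CON replicate 2. They fell to 1 without CON replicate 1, CON replicate 3 or any single MV library. The gene lower in MV was lost without CON replicate 1, CON replicate 3, MV replicate 2, MV replicate 3 or MV_PEEP replicate 1. In MV_PEEP the count higher was 0 without CON replicate 1 or CON replicate 2, and 2 without CON replicate 3 or MV replicate 1.

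Notch signalling keeps satellite cells quiescent. Of 10 tested genes of this pathway, 1 was lower in MV (JAG1) and 1 in MV_PEEP (HEY2) at an unadjusted p under 0.05, and none was higher, with medians of 0.02 and -0.65. JAG1, a Notch ligand that endothelial cells also express, was at 2.31, 7.56 and 4.92 FPKM in CON, 1.24, 1.31 and 0.290 in MV, and 0.703, 1.97 and 5.69 in MV_PEEP. The MV libraries were all below CON (-2.49 ± 0.68, edgeR unadjusted p = 0.00435, adjusted p = 0.447), while MV_PEEP overlapped it. Of all tested genes, 15.3% did not overlap between MV and CON. HEY2, a transcriptional repressor downstream of Notch, was at 0.898 to 1.33 in CON and 0.112 to 0.490 in MV_PEEP (-2.23 ± 0.77, unadjusted p = 0.0154, adjusted p = 0.687). Without MV replicate 1, 3 genes were lower in MV and the median fell to -0.79, and without MV replicate 3, 1 was higher. In MV_PEEP the count was 0 without CON replicate 3 or MV_PEEP replicate 1, and 2 without MV replicate 3 or MV_PEEP replicate 3.

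The bHLH partners and inhibitors of the myogenic factors gave 0 higher and 2 lower of 12 tested in MV, and 1 higher and 0 lower in MV_PEEP. ID3, which sequesters the E-protein partners, was at 61.5 to 93.7 FPKM in CON and 32.7 to 56.8 in MV (-1.03 ± 0.43, edgeR unadjusted p = 0.0386), and reached 176 in MV_PEEP replicate 3. SNAI1, a repressor that competes for E-boxes, was the 1 gene higher in MV_PEEP (2.39 ± 1.05, unadjusted p = 0.0466). Without MV_PEEP replicate 3, 0 genes of this list were higher and 1 was lower in MV_PEEP, and the count higher was also 0 without CON replicate 1, MV_PEEP replicate 2 or any single MV library. Leaving out MV replicate 3 took the 2 lower in MV to 0 and leaving out CON replicate 2 took them to 1, while 4 were lower without MV_PEEP replicate 1 or MV_PEEP replicate 3. Of the class IIa deacetylases and other regulators of MEF2, 0 of 14 tested were past an unadjusted p of 0.05 in any contrast, and HDAC5, which represses MEF2, was at 0.33 ± 0.27 in ventilated minus CON.

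Among 17 other muscle transcription factors, 1 was higher in MV and 1 lower in MV_PEEP. TEAD4, a partner of the YAP and TAZ coactivators, was at 14.1 to 26.5 FPKM in CON and 26.2, 74.0 and 101 in MV (1.71 ± 0.63, edgeR unadjusted p = 0.0222, adjusted p = 0.595). TBX1 was the gene lower in MV_PEEP (-1.07 ± 0.36, unadjusted p = 0.0139). The count lower in MV_PEEP was 0 without MV_PEEP replicate 3 or CON replicate 1 and 3 without MV_PEEP replicate 1, and the count higher there was 1 without CON replicate 2, CON replicate 3 or MV_PEEP replicate 3. In MV, 0 were higher and 1 lower without MV replicate 3, and 2 were higher without CON replicate 1, MV replicate 1 or MV_PEEP replicate 3.

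Genes of myoblast fusion and of the embryonic contractile apparatus were led by MYBPH, a myosin-binding protein, at 0.583, 1.06 and 2.48 FPKM in CON, 4.61, 33.9 and 21.4 in MV, and 12.8, 9.21 and 15.2 in MV_PEEP. All ventilated libraries exceeded all controls (3.31 ± 0.72, edgeR unadjusted p = 0.000962, adjusted p = 0.198). No overlap between ventilated and CON libraries was found for 7.23% of all tested genes. Of the 8 tested, 2 were higher in MV (MYBPH and ACTC1) and 1 in MV_PEEP (MYBPH). ACTC1, the cardiac actin made in developing muscle, rested on MV replicate 2, at 831 FPKM against 8.98 to 67.0 elsewhere. MYH3, the embryonic myosin of newly formed and regenerating fibres, ranged from 2.07 to 73.1 in CON, 2.35 to 12.5 in MV and 13.9 to 122 in MV_PEEP, with no test past the adjusted level. The 2 higher in MV became 1 without MV replicate 2 or with any 1 of the CON libraries left out, and 1 was lower in MV without CON replicate 1, MV replicate 3, MV_PEEP replicate 2 or MV_PEEP replicate 3.

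Growth signals to satellite cells gave 1 higher of 10 tested in MV, IL6, and 1 in MV_PEEP, FGF7. IL6 was at 17.5 FPKM in MV replicate 1 and listed at 0 in all CON and both other MV libraries. FGF7 was at 19.2 in MV_PEEP replicate 3. Either value by itself lifts its gene past the minimum mean of 0.5 FPKM. These are thus tests of genes that the high library could admit. The first count was 0 without MV replicate 1 and the second 0 without MV_PEEP replicate 3, and both were 0 with any 1 of the CON libraries left out. Without MV_PEEP replicate 1 or MV_PEEP replicate 2, 2 genes were higher in MV_PEEP. Of 7 cell cycle genes tested, 0 were past an unadjusted p of 0.05 in either direction in any of the 4 contrasts, although leaving out MV_PEEP replicate 1, 2 or 3 brought 1 past it in some of them.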

How the data were processed

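RNA of whole rabbit diaphragm was sequenced as paired-end poly(A) libraries. According to the submitters' processing notes the tools were cutadapt 1.9, HISAT2 2.0.4 and StringTie 1.3.4d with the OryCun 2.0 build. The deposited table holds whole-number counts per gene, made by a program not given in the sources used here, and FPKM values that the authors computed with StringTie, scaled by transcript length and mapped fragments. Of the deposited counts from 1 to 12, 54.3% were 4, 8 or 12, so a count may not be 1 fragment. A count of 0 is written as an FPKM of 0.0001.

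Genes whose mean FPKM reached 0.5 were tested with edgeR 4.0.16 in R 4.3.3 (quasi-likelihood test, TMM scaling, 1 mean per group, all 9 libraries, common biological coefficient of variation 0.552), with Benjamini-Hochberg adjustment over 12981 genes. TMM factors ran from 0.786 to 1.47. In the contrast of ventilated minus CON, MV and MV_PEEP had equal weight. The procedure was run on simulated data, where the fitted fold changes had to follow those set. No requirement was placed there on which genes were called. Exact two-sided permutation tests on FPKM allow p-values no smaller than 0.1 (3 against 3) or 0.0238 (6 against 3). DESeq2 1.42.0 and limma 3.58.1 gave alternatives. LOC names were replaced by RefSeq symbols for 764 genes (20171 gene IDs matched in the mOryCun1.1 annotation, of which no coordinates were used). Gene and promoter sequences were not used here.

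The members and gene lists were chosen with earlier results of these data known. Of each list at most the 4 genes with the smallest p in ventilated minus CON were named, apart from those said to be named after their values were seen. The lists were compared by counts and medians only. Libraries with the same replicate number were not taken as pairs, since nothing in the labels ties them.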

Additional observations from a re-analysis of the deposited data

How the results depend on the processing

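No factor passed an adjusted p of 0.05 under any alternative: over 28 differences and 605 alternative values, 532 kept the direction and the lowest adjusted p was 0.166. PAX7 was below 0 in MV minus CON in 21 of 21 alternatives (-2.38 to -0.58, 18 of them with an unadjusted p under 0.05). In ventilated minus CON it was below 0 in 20 of 20 (-1.87 to -0.41, 15 of them under this level). The alternatives refit the same libraries, so their shared direction is no separate support. PAX7 also passed the minimum level through CON, the group in which it is highest. It was not tested with a minimum mean FPKM of 1.

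The number of genes called depended on the tool. For MV minus CON, MV_PEEP minus CON, MV_PEEP minus MV and ventilated minus CON in turn, edgeR called none, and DESeq2 called 154, 98, 15 and 203. On log2(FPKM + 1) limma called 2, 2, 1 and 5, and on log2(FPKM + 0.1) 2, 2, 0 and 5. With voom and sample weights 20, 2, 0 and 58 genes were called, and edgeR without a filter on low values called 3 in ventilated minus CON. Leaving out a library gave 0 to 1 called genes. The causes were not tested. At an unadjusted p under 0.05, TMM scaling gave 490 higher and 414 lower, 419 and 392, 293 and 164, and 467 and 498. Total-count scaling gave 733 and 245, 1060 and 187, 439 and 78, and 977 and 263, and moved the median of all genes to 0.126, 0.417, 0.246 and 0.275. Upper-quartile scaling gave 392 and 515, 372 and 451, 327 and 138, and 376 and 605.

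Some alternatives turned the direction of a factor's log2 fold change. In MV minus CON, MYF5 was 0.018 on log2(FPKM + 1) and 0.083 with total-count scaling. In MV_PEEP minus CON, MYOG was -0.10 with voom and MEF2A 0.019 with total-count scaling. In MV_PEEP minus MV, MYF6 was -0.10 with voom, and MYOG was 0.081 and 0.084 with limma (pseudocounts of 1 and 0.1), 0.014 with upper-quartile and 0.15 with total-count scaling. In ventilated minus CON, MYF5 was -0.036 with upper-quartile scaling, -0.0028 in the default form of the quasi-likelihood fit, -0.0014 with voom and -0.0043 on counts divided by 4. MYOD1 was 0.0028 with DESeq2, 0.063 and 0.075 with limma, 0.0030 with RLE and 0.067 with total-count scaling, and 0.0039 without a filter. MYOG was -0.047 with voom, and MEF2A was -0.11 and -0.38 with limma, -0.018 with upper-quartile scaling and -0.46 with voom.

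Libraries of the same number were not paired in the labels, and the correlation of their deviations from the group means ran from -0.28 to 0.36, with 2 of 9 libraries closest to their own number. The replicate block called no gene in any contrast. With the block, MYF6 was -0.16 and MEF2C -0.042 in MV_PEEP minus MV, and MYF5 was -0.050, MYOD1 0.0051 and MEF2A -0.24 in ventilated minus CON.

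Leaving out single libraries turned the direction of some factors. The values ranged, in MV minus CON, over MYF5 -0.66 to 0.41, MYOD1 -0.16 to 0.88, MYOG -0.28 to 0.66 and MEF2C -0.74 to 0.046. In MV_PEEP minus CON they ranged over MYF5 -0.12 to 0.56, MYF6 -0.14 to 1.001, MYOG -0.68 to 0.66, MEF2A -1.05 to 0.15 and MEF2C -1.10 to 0.12. In MV_PEEP minus MV they ranged over MYF5 -0.21 to 0.76, MYF6 -0.65 to 0.49, MYOG -0.97 to 0.54 and MEF2C -0.72 to 0.42. In ventilated minus CON they ranged over MYF5 -0.28 to 0.48, MYOD1 -0.34 to 0.29, MYOG -0.20 to 0.47, MEF2A -0.27 to 0.33 and MEF2C -0.74 to 0.084.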
